A study of Mus musculus with 6 samples.

Results

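The genes described here encode receptors, lectins, adhesion molecules and cytokines of the immune system. They were chosen by name: symbols starting with Cd and a digit, Klr, Clec, Fcr, Fcgr, Il and a digit, Ccl, Ccr, Cxc, Tlr, Lilr, Pir, Siglec, H2-, Ceacam, Tnfrsf, Tnfsf, Ifn, Ly6, Slam, Btn or Nlr, listed by all 6 libraries, without Cd8a and Cd247. The rule found 73 genes of the 2898 listed by any library. They carry 134 of the 4658 alternative splicing events that could be compared across libraries. Another 2 genes that fit the names, Il1f5 and Klra4, were listed by only some libraries and are not compared. For each event the measured value is an inclusion frequency, a fraction that runs between 0 (always left out of the mature RNA) and 1 (always included). An inclusion frequency carries no expression level, and events of a gene are numbered here by their order in the tables.

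The cells were primary mouse medullary thymic epithelial cells (mTECs), seeded on a gel of fibrin that held human dermal fibroblasts. Lentivirus delivered a short hairpin RNA together with GFP. In the Raver2 knockdown group and the Setd2 knockdown group, both libraries of a group carry different hairpins against the same target. The Ctr group carries a hairpin against bacterial LacZ in both of its libraries, so every group shares infection, GFP and culture with fibroblasts. Cells that were viable, MHC class II positive and GFP positive were sorted 5 days after infection, and the starting cells had been gated as CD45 negative and EpCAM positive. The labels give neither the strain nor the age of the mice, nor whether the pair of libraries in a group had separate animals or cultures behind it. A p-value here is thus set against library spread alone, which in Ctr may be technical and in the knockdown groups includes the difference between hairpins. Raver2 is an RNA-binding protein that works with the splicing regulator PTB, and Setd2 is a histone methyltransferase of transcribed genes. Neither gene has a listed event in any library, so the strength of each knockdown is unknown here.

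mTECs transcribe many genes that are otherwise restricted to other tissues, largely through the regulator Aire, and present the products to developing T cells so that self-reactive cells are removed. Receptors of leukocytes are among the genes that can be transcribed in this way, often at low levels and in few cells. Many immune receptor genes are built of exons that each encode a domain, and alternative splicing of such exons is well known to give membrane-bound and secreted forms, or forms with long and short cytoplasmic tails. Cd74, the invariant chain that chaperones MHC class II, and Cd40, a receptor for T cell help that drives mTEC maturation, are genes that mTECs use themselves. Defining markers could be checked only by whether an event was listed. Of 10 mTEC markers 3 were listed in all libraries (Aire, Cd74 and Cd40), of 10 leukocyte markers 3 (Ptprc, Cd8a and Lck), and of 10 fibroblast markers 1 (Postn). A listed event says nothing of amount, so the share of other cell types in each library was not tested.

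By symbol or RefSeq synonym all 73 genes were found in the GENCODE M21 annotation of mm10, and 20 lie on chromosome 6, among them 16 of the 17 Klr and Clec genes. The annotated genes hold between 2 and 18 transcripts, and 13 have no internal exon that one annotated transcript keeps and another skips. For 25 genes with 1 event, the annotation holds exactly 1 such exon. The sequences of 3 of these exons are shown because the results turn on their genes: Fcrl5 and Clec4b1 differed between Ctr and both knockdown groups, and Tnfrsf9 was higher in all 4 knockdown libraries without passing the test. The deposited fractions name no exon, so whether the measured event is the exon shown is not known. Each exon's length is a multiple of 3, so its inclusion or skipping keeps the reading frame, and each lies in coding sequence on the plus strand of mm10. The exon of Clec4b1 (chr6:123065939-123066037, 99 bases, exon 3 of 6) is present in 1 of 2 annotated transcripts. The exon of Fcrl5 (chr3:87442005-87442268, 264 bases, exon 3 of 12) is present in 2 of 5. The exon of Tnfrsf9 (chr4:150935422-150935556, 135 bases, exon 7 of 8) is present in 4 of 9. They are written 5′ to 3′ with no base marked.
Clec4b1 exon: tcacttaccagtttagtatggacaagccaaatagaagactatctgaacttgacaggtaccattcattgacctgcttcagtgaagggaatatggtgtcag
Fcrl5 exon: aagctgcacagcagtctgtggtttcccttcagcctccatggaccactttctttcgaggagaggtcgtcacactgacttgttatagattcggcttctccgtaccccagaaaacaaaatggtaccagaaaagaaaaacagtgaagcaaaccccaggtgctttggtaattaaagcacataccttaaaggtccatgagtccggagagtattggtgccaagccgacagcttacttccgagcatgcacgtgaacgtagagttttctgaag
Tnfrsf9 exon: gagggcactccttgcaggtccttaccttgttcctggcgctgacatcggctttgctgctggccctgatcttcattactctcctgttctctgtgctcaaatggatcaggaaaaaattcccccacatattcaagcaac

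Each library listed 4777 to 4949 events, from 2765 to 2857 genes, and the depth behind each fraction is unknown. Ctr stood apart from both knockdown groups in how its tables were laid out. Between a knockdown table and a Ctr table, 22.8% to 25.4% of the shared genes were out of place in the gene order, against 12.1% to 14.8% between Raver2 and Setd2 tables and 10.1% to 14.2% between tables of the same group. Inclusion in genes with 1 event, which need no matching of order within the gene, correlated across events at 0.764 to 0.781 between a knockdown and a Ctr library, 0.801 to 0.820 between Raver2 and Setd2 libraries, and 0.818 to 0.824 within a group. Libraries of 1 group thus differed less from each other than Ctr did from the knockdowns. Events of genes with several events were matched by their order within the gene, and correlated at 0.742 to 0.764 between a knockdown and a Ctr library, 0.771 to 0.796 between Raver2 and Setd2 libraries, and 0.781 to 0.802 within a group. If that order differs between tables as well, such an event may be set against another event of its gene. The order bears on Cd209b, Cd22, Tlr7 and the other genes with numbered events. It does not bear on genes with 1 event, such as Fcrl5, Clec4b1 and Tnfrsf9. Events carry no coordinates, so whether the single event of such a gene is the same in every table is not known either. Whether a batch or a separate run of the authors' processing contributed was not tested.

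Across the 134 events the mean inclusion frequency was 0.460 and 0.483 in the Raver2 knockdown libraries and 0.459 and 0.476 in the Setd2 knockdown libraries, against 0.416 and 0.419 in the Ctr libraries. Both knockdown groups lay above Ctr. Over all 4658 events the means were 0.451 and 0.452 with Raver2 knockdown, 0.449 and 0.442 with Setd2 knockdown, and 0.458 and 0.461 in Ctr, the opposite order. The median difference was close to 0 for the immune genes, at 0.000263 for Raver2 knockdown minus Ctr and 1.58e-06 for Setd2 knockdown minus Ctr. Over all events it was -8.92e-07 and 3.08e-11. Events fixed at an end of the scale pull a median toward 0. The medians thus do not show how many events carry the shift in the mean. In the 39 immune events with all values between 0.01 and 0.99, the median differences were 0.0300 and 0.00938. Of these 39, 25 were positive and 14 negative for Raver2 knockdown, and 21 and 18 for Setd2 knockdown. Over all events in that range the medians were -0.00115 and 0.00141. Events below 0.01 numbered 25 and 24 of 134 with Raver2 knockdown and 28 and 35 with Setd2 knockdown, against 42 and 38 in Ctr.

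Each event was compared with limma over all 6 libraries, with Benjamini-Hochberg adjustment over all 4658 events and an adjusted p of 0.05 as the threshold. For Raver2 knockdown against Ctr, 5 of 134 immune events in 4 genes passed (3.73%), beside a background of 2.43% of all events. All 5 were higher in the knockdown; over all events 1.01% were called higher and 1.42% lower. For Setd2 knockdown against Ctr, 4 of 134 passed (2.99%), beside 2.23% of all events, and all 4 were higher, where the background was 0.88% higher and 1.35% lower. For Raver2 knockdown against Setd2 knockdown, 1 of 134 passed (0.746%), beside 0.73%, and it was lower, where the background was 0.408% higher and 0.322% lower. The shares among immune genes lay near the background in each comparison. At an unadjusted p under 0.05 there were 17, 12 and 14 immune events in these comparisons (12.7%, 8.96% and 10.4%), against 12.0%, 11.6% and 6.12% of all events. Both knockdowns are set against the same 2 Ctr libraries, so an event with unusual Ctr values enters both comparisons. The counts depend on single libraries, both among the immune events and over all events, as described at the end of this report.

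Lack of overlap between groups was common everywhere and is no sign of a difference by itself. Between Raver2 knockdown and Ctr, 67 of 134 immune events did not overlap (50.0%, against 44.0% of all events), 40 higher (background 20.7%) and 27 lower (23.4%). For Setd2 knockdown against Ctr there were 64 (47.8%, against 42.5%), 39 higher (21.2%) and 25 lower (21.3%). Between the knockdowns, Raver2 against Setd2, there were 53 (39.6%, against 33.8%), 31 higher (15.3%) and 22 lower (18.4%). A gap of at least 0.1 between the nearest libraries of the groups was rarer. It was found in 15 immune events for Raver2 knockdown against Ctr (11.2%, against 9.66% of all events), 9 of them higher (background 4.53%) and 6 lower (5.13%). For Setd2 knockdown against Ctr 12 had it (8.96%, against 9.08%), 10 higher (3.63%) and 2 lower (5.45%). Between Raver2 knockdown and Setd2 knockdown 9 had it (6.72%, against 5.02%), 4 higher (2.45%) and 5 lower (2.58%).

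The events that passed belong to receptors of B cells and myeloid cells and to a nucleic acid sensor. Fcrl5, an Fc receptor-like protein of B cells (chromosome 3, 87435773 to 87500678), had the lowest adjusted p of the immune events in both comparisons with Ctr. Its event had inclusion frequencies of 0.988 and 0.985 with Raver2 knockdown and 0.985 and 0.993 with Setd2 knockdown, against 2.77e-06 and 1.32e-07 in Ctr. The event was nearly always included in the 4 knockdown libraries and nearly never in Ctr. The difference from Ctr was 0.987 ± 0.0220 (moderated SE) for Raver2 knockdown, with an adjusted p of 0.00186 in limma. For Setd2 knockdown the difference was 0.989, with an adjusted p of 0.00246 in limma. Each SE given here and below is moderated by limma. It draws on the spread within all groups (n = 2 libraries a group), also the group not compared, and on the spread of other events. With a fit to the 4 libraries compared alone, the Setd2 adjusted p was 0.0593.

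Clec4b1, a C-type lectin of dendritic cells and other myeloid cells (chromosome 6, 123049962 to 123071555), gave the same picture. Inclusion was above 0.99 and 0.899 with Raver2 knockdown and above 0.99 in both Setd2 knockdown libraries, against 4.09e-05 and 5.64e-05 in Ctr. The knockdown and Ctr values lay at opposite ends of the scale. The differences were 0.949 ± 0.0435 (SE) for Raver2 knockdown and 0.9997 for Setd2 knockdown (limma, adjusted p = 0.00671 and 0.00709). The Raver2 call was lost in a fit to the 4 libraries alone (adjusted p = 0.0627). The Setd2 call was lost there too (0.0593) and without the first Setd2 library (0.0524).

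Cd209b encodes SIGNR1, a lectin by which macrophages of the splenic marginal zone take up microbial polysaccharides (chromosome 8, 3917655 to 3926844, minus strand). Its event 3 stood at above 0.99 and 0.892 with Raver2 knockdown and at 1 in both Setd2 knockdown libraries, against 0.00255 and 0.000492 in Ctr. Again the groups did not overlap. The difference was 0.944 ± 0.0458 (SE) for Raver2 knockdown and 0.998 for Setd2 knockdown (limma, adjusted p = 0.00758 and 0.00772). The other 2 events of the gene did not show it. Event 1 was 0.619 and 0.943 with Raver2 knockdown and above 0.99 in the Setd2 knockdown and Ctr libraries, and event 2 was below 0.01 in every library. Events 1 and 3 were complements of each other in both Ctr libraries and in none of the knockdown libraries, so whether event 3 is the same event in Ctr and in the knockdowns is not known. The Raver2 call for event 3 was lost without the first or second Setd2 library (adjusted p = 0.0527 and 0.0531) and in a fit to the 4 libraries alone (0.0666). The Setd2 call was lost without the first Setd2 library (0.0580) and in the fit to 4 libraries (0.0593).

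Cd22, a sialic acid-binding receptor that dampens B cell receptor signalling (chromosome 7, 30865402 to 30880342, minus strand), passed for Raver2 knockdown at low inclusion. Event 1 was included at 0.0927 and 0.0761 with Raver2 knockdown and at 0.0519 and 0.0658 with Setd2 knockdown, against 2.36e-26 and 1.90e-16 in Ctr. All 4 knockdown values lay above both Ctr values. The difference from Ctr was 0.0844 ± 0.00807 (SE) for Raver2 knockdown (limma, adjusted p = 0.0347) and 0.0588 for Setd2 knockdown, which did not pass (limma, adjusted p = 0.0827). Event 3 differed from event 1 by at most 0.00221 in any library, so both may be nearly 1 measurement; its difference for Raver2 knockdown was 0.0829 ± 0.00883 (limma, adjusted p = 0.0428). Event 2 was 0.00899 and 0.0221 with Raver2 knockdown and 0.00293 and 0.00782 with Setd2 knockdown, against 5.99e-11 and 0.121 in Ctr, so the groups overlapped. The calls for events 1 and 3 were lost whenever any 1 of the 6 libraries was left out (adjusted p from 0.0691 to 0.139), and both the fit to 4 libraries and the fit without a variance trend missed the threshold (0.0509 to 0.0954), as did event 3 with robust variances (0.0546).

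Tlr7, the endosomal sensor of single-stranded RNA (X chromosome, 167304929 to 167330558, minus strand), was the only immune gene past the threshold between the knockdowns in the fit to 6 libraries. Event 2 was included at 0.000112 and 2.78e-06 with Raver2 knockdown and at 0.0440 and 0.0390 with Setd2 knockdown, against 0.00273 and 3.78e-05 in Ctr. Setd2 knockdown libraries lay above all others, at a few percent inclusion. Setd2 knockdown exceeded Ctr by 0.0401 ± 0.00225 (SE; limma, adjusted p = 0.0138). Raver2 knockdown minus Setd2 knockdown was -0.0414 ± 0.00225 (limma, adjusted p = 0.0201). The other 4 events of Tlr7 did not pass, and events 1 and 4 spanned nearly the whole scale within a group. Event 1 was 0.175 and 0.376 with Raver2 knockdown, 0.00366 and 0.999 with Setd2 knockdown and above 0.99 and 1.47e-08 in Ctr. Event 4 was above 0.99 in both Raver2 knockdown libraries, 0.0136 and 0.624 with Setd2 knockdown, and 0.993 and 0.000124 in Ctr. The Setd2 call for event 2 was lost without the first or second Raver2 library (adjusted p = 0.0654 and 0.0677), without a variance trend (0.0575) and in the fit to 4 libraries (0.0688). The call between the knockdowns was lost without either Raver2 library (0.0604 and 0.0672), without the first or second Ctr library (0.0599 and 0.0583), on the arcsine scale (0.0644), without a variance trend (0.134), in the fit to 4 libraries (0.0580) and with the hairpin number as a block (0.504).

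**Figure D1:**
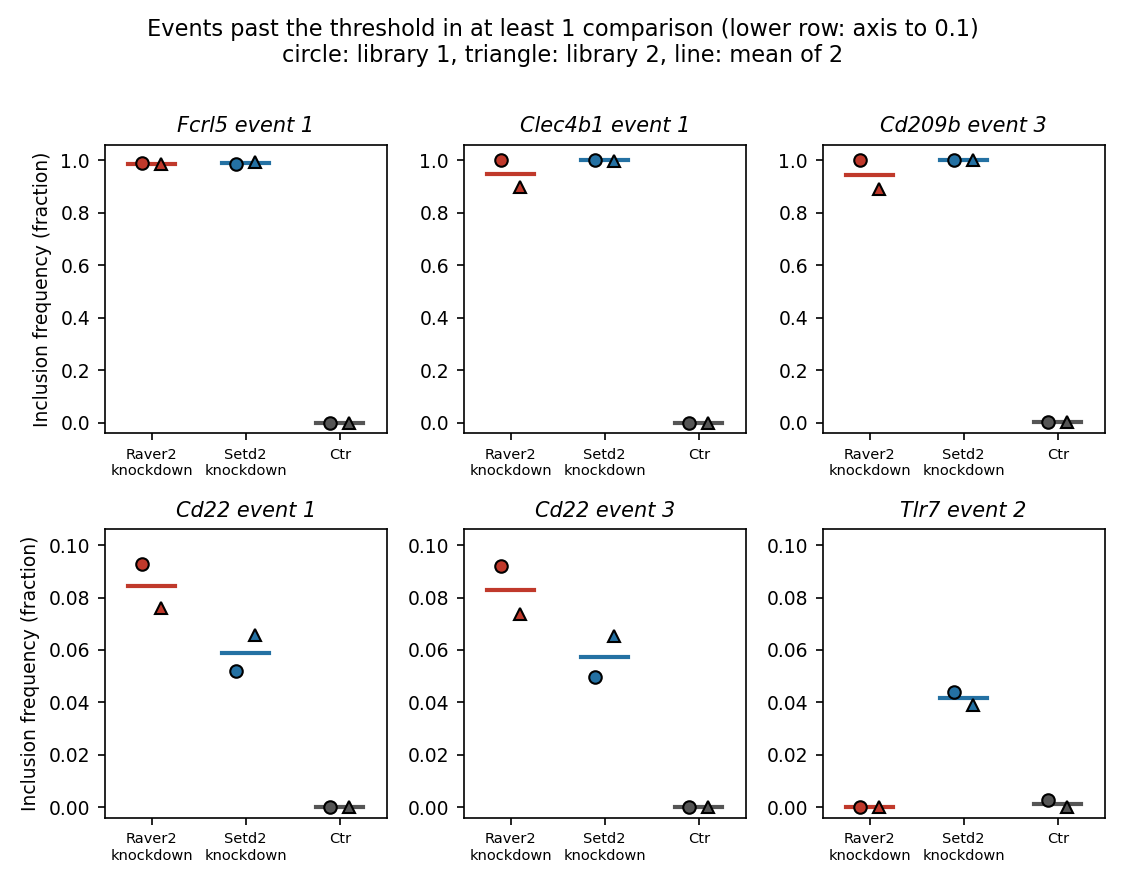
Inclusion frequency (fraction, vertical axis) of the events that passed the threshold in at least 1 comparison, in Raver2 knockdown, Setd2 knockdown and Ctr libraries; each point is 1 library and each line a group mean. Fcrl5, Clec4b1 and Cd209b lie near 1 in the knockdown libraries and near 0 in Ctr, while the Cd22 and Tlr7 events stay below 0.1 in all libraries.

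The C-type lectins, grouped by symbol, had 22 events in 11 genes. For each knockdown against Ctr, 2 of 22 passed, both higher (Clec4b1 and Cd209b event 3), where 2.43% and 2.23% of all events passed. The rest did not pass. Cd72, a B cell lectin that restrains antigen receptor signalling, had 0.529 and 0.650 for event 1 with Raver2 knockdown and 0.698 and 0.726 with Setd2 knockdown, against 0.530 and 0.610 in Ctr. The Setd2 knockdown values lay above Ctr, but the adjusted p in limma was 0.527. Clec1b, the podoplanin receptor of platelets, had 0.945 and 0.885 for event 2 with Raver2 knockdown and 0.986 and above 0.99 with Setd2 knockdown, against above 0.99 in both Ctr libraries (limma, adjusted p = 0.296 for Raver2 knockdown). Clec9a, a dendritic cell receptor for dead cells, varied within the knockdown groups for event 1, with 0.427 and above 0.99 with Raver2 knockdown, 0.674 and above 0.99 with Setd2 knockdown, and 0.540 and 0.383 in Ctr. Clec2i, a ligand of NK cell receptors, had 0.481 and 0.325 for event 4 with Raver2 knockdown and 0.403 and 0.334 with Setd2 knockdown, against 0.464 and 0.460 in Ctr (limma, adjusted p = 0.859 and 0.709). Clec5a stood between 0.258 and 0.498 in all libraries, and Clec2g was near 0 in every library but the second of Raver2 knockdown, at 0.566. Clec16a, an endosomal protein that carries the Clec name without being a surface lectin, had 2 events that were complements of each other at the ends of the scale.

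Among Fc receptors (5 events, 4 genes), only the Fcrl5 event passed in either comparison with Ctr, where 2.43% and 2.23% of all events passed. Fcrl1, a relative of Fcrl5 on B cells, had 0.0299 and 0.0739 for event 2 with Raver2 knockdown and 0.0519 and 0.0734 with Setd2 knockdown, against 9.65e-08 and 0.000240 in Ctr. These values lay above Ctr in all 4 knockdown libraries, as for Cd22, but the adjusted p in limma was 0.412 and 0.327. Fcgr2b, the inhibitory receptor for IgG, stood between 0.336 and 0.498 in all 6 libraries with overlapping groups. Fcrla, an intracellular relative, was 0.131 and 0.212 with Raver2 knockdown and 0.197 and 0.159 with Setd2 knockdown, inside the Ctr values of 0.444 and 1.63e-17.

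Paired immunoglobulin-like receptors (14 events, 8 genes) held the 2 Cd22 calls for Raver2 knockdown and no call for Setd2 knockdown in the main fit to 6 libraries. Over all events 2.43% and 2.23% passed. The 2 Cd22 calls may be nearly 1 measurement, as described above. Ceacam1, an adhesion receptor known for splice forms with long and short cytoplasmic tails, had 0.334 and 0.286 with Raver2 knockdown and 0.311 and 0.336 with Setd2 knockdown, against 0.216 and 0.231 in Ctr. Both knockdown groups lay above Ctr without overlap, by 0.0863 and 0.0995, and neither passed (limma, adjusted p = 0.529 and 0.457). Its neighbour Ceacam2 was 0.958 and 0.967 with Raver2 knockdown and 0.986 in both Setd2 knockdown libraries, against 0.981 and 0.992 in Ctr. Cd33, a myeloid sialic acid-binding receptor, had 0.102 and 0.256 with Raver2 knockdown and 0.182 and 0.148 with Setd2 knockdown, against 0.0419 and 0.0852 in Ctr (limma, adjusted p = 0.640 and 0.699). Cd300lg, a receptor of vascular endothelium, had opposite differences for event 2, with 1.66e-05 and 1.24e-06 with Raver2 knockdown and 0.174 and 0.225 with Setd2 knockdown, against 0.0896 and 0.0968 in Ctr. The 3 groups did not overlap, with adjusted p in limma of 0.199 for Raver2 knockdown against Ctr, 0.150 for Setd2 knockdown against Ctr and 0.0788 for Raver2 knockdown against Setd2 knockdown. Its event 4 was above 0.99 in both Raver2 knockdown libraries and 0.631 and 0.000473 with Setd2 knockdown, against 0.644 and 0.604 in Ctr (limma, adjusted p = 0.712 and 0.699). Cd300lf, Cd200r3 and Lilra6, myeloid receptors of the same build, overlapped between each knockdown and Ctr.

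Lectin-like receptors of natural killer cells (11 events, 8 genes) held no call in any comparison in the main limma fit to 6 libraries, though several differed widely between libraries. Klrb1a, an NK cell receptor, had 0.437 and 0.341 with Raver2 knockdown and above 0.99 in both Setd2 knockdown libraries, against above 0.99 and 0.616 in Ctr. Raver2 knockdown lay below Setd2 knockdown by 0.610 without overlap (limma, adjusted p = 0.544). Klrk1 encodes NKG2D, an activating receptor for stress ligands that is known in mice for a long and a short splice form. Its event was 0.0481 and 0.0274 with Raver2 knockdown and 2.83e-06 and 1.18e-06 with Setd2 knockdown, against 1.15e-05 and 5.50e-05 in Ctr (limma, adjusted p = 0.194 for Raver2 knockdown). Klra3, of the Ly49 receptors for MHC class I, had 0.996 and 0.388 for event 2 with Raver2 knockdown and 0.318 and 0.132 with Setd2 knockdown, against 5.84e-07 and 5.49e-09 in Ctr (limma, adjusted p = 0.406 and 0.784). Klra2, Klra7 and Klrb1f varied within groups: Klrb1f event 1 was near 0 in the first and near 1 in the second library of each knockdown group. Klr genes lie in clusters of close relatives, so reads may have been split or shared between members when the authors aligned them, which the fractions do not show.

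Interleukins and their receptors (15 events, 7 genes) held no call in the main fit to 6 libraries either. Il15ra, which presents IL-15 to neighbouring cells and is known for many splice forms, carried 9 of these events. Its events 4 and 8 were complements of each other within 0.001 in every library and so hold 1 observation. Event 3 was above 0.99 in both Raver2 knockdown libraries and above 0.99 and 0.000242 with Setd2 knockdown, against 4.38e-06 and 6.90e-08 in Ctr (limma, adjusted p = 0.434 and 0.699). For Raver2 knockdown, event 3 passed in a fit to the 4 libraries compared alone. It did not pass on the arcsine scale, without a variance trend or with robust variances. The seventh event ran the other way, with 0.000179 and 7.51e-06 with Raver2 knockdown and 1.05e-08 and 1.97e-07 with Setd2 knockdown, against 0.959 and 0.376 in Ctr (limma, adjusted p = 0.385 and 0.384). Inclusion of event 1 was above 0.99 in all 4 knockdown libraries, against 0.665 and 0.906 in Ctr (limma, adjusted p = 0.502 and 0.519). In none of these 3 events did a knockdown group overlap Ctr. Il18r1, a receptor chain for IL-18, was 0.358 and 0.576 with Raver2 knockdown and 0.673 and 0.478 with Setd2 knockdown, against 0.318 and 0.315 in Ctr. Il34, a ligand of the macrophage growth factor receptor, was 0.0813 and 0.122 with Raver2 knockdown, 0.101 and 1.04e-05 with Setd2 knockdown, and 0.0638 and 0.0618 in Ctr. Il17re, an IL-17 receptor chain, was 0.311 and 0.133 with Raver2 knockdown and 7.14e-06 and 0.151 with Setd2 knockdown, against 0.460 and 0.204 in Ctr (limma, adjusted p = 0.822 and 0.604). Il21 and Il11ra1 stayed below 0.01 in every library.

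The TNF and TNF receptor superfamily (12 events, 6 genes) had no call in any comparison in limma. The event of Tnfrsf9, the costimulatory receptor 4-1BB, had 0.639 and 0.674 with Raver2 knockdown and 0.560 and 0.592 with Setd2 knockdown, against 0.207 and 0.363 in Ctr. All 4 knockdown libraries lay above both Ctr libraries. The differences were 0.372 ± 0.0727 (SE) and 0.291, with adjusted p in limma of 0.180 and 0.263. Cd40 had 5 events, and its event 1 was 0.947 and 0.962 with Raver2 knockdown and 0.949 and 0.992 with Setd2 knockdown, against above 0.99 in both Ctr libraries (limma, adjusted p = 0.436 and 0.693). Cd27, a costimulator of lymphocytes, held steady in both events. Tnfrsf18, known as GITR, stood between 0.924 and 0.993. Tnfrsf12a, the receptor for TWEAK, and the fused gene Tnfsf12Tnfsf13 overlapped between groups.

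Chemokines and their receptors (7 events, 3 genes) had no call in the main fit to 6 libraries. Ccr6, the receptor for Ccl20, had 0.531 and 0.999 for event 2 with Raver2 knockdown and 0.989 and above 0.99 with Setd2 knockdown, against 1.12e-07 and 2.72e-06 in Ctr. The groups did not overlap, and the adjusted p in limma was 0.234 and 0.147. Its events 1, 4 and 5 differed between the Ctr libraries by more than 0.6, and event 3 was near 0 throughout. The single listed chemokine, Cxcl12, which retains cells that bear Cxcr4, was 0.750 and 0.766 with Raver2 knockdown and above 0.99 and 0.551 with Setd2 knockdown, against 0.963 and 0.968 in Ctr. Raver2 knockdown lay below Ctr in both libraries, with an adjusted p of 0.724 in limma. The Cxcl12 event passed for Raver2 knockdown in a fit to the 4 libraries compared alone. It did not pass on the arcsine scale, without a variance trend or with robust variances. Ccr9, the receptor for Ccl25 on thymocytes, stayed between 0.386 and 0.476.

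**Figure D2:**
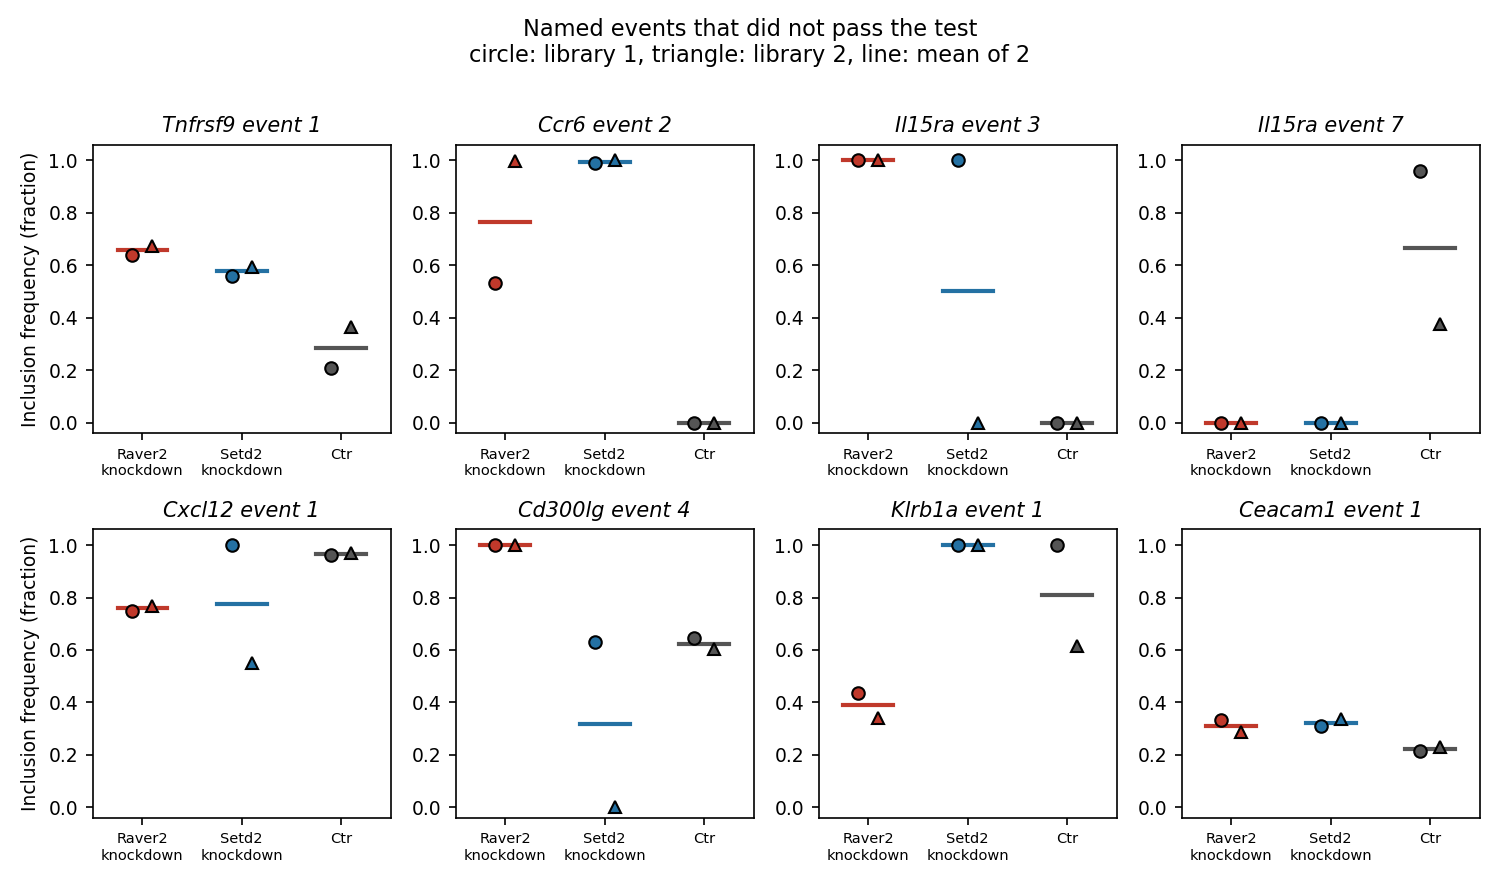
Inclusion frequency (fraction, vertical axis) of named events that did not pass the threshold in the main fit to 6 libraries, in Raver2 knockdown, Setd2 knockdown and Ctr libraries; each point is 1 library and each line a group mean. Tnfrsf9, Ceacam1 and Ccr6 event 2 have all 4 knockdown libraries above both Ctr libraries, Il15ra event 7 has them below, and Klrb1a separates Raver2 knockdown from Setd2 knockdown.

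The pattern recognition genes other than Tlr7, which are Nlrp5, Nlrp9a and Nlrp5-ps, belong to NOD-like receptors known mostly from oocytes, and Nlrp5-ps is annotated as a pseudogene. Nlrp5 and Nlrp9a stayed below 0.05, and Nlrp5-ps ran between 0.0887 and 1 with overlapping groups. The Ly6 family (14 events, 3 genes), small lipid-anchored surface proteins, had no call. Ly6a, the stem cell antigen Sca-1, had for event 2 values of 0.0784 and 0.0718 with Raver2 knockdown and 0.0804 and 0.0807 with Setd2 knockdown, against 0.113 and 0.107 in Ctr. The knockdown groups lay below Ctr without overlap, and the adjusted p in limma was 0.0716 and 0.106. Ly6c1 event 4 was 0.6003 and 0.513 with Raver2 knockdown and 0.446 and 0.888 with Setd2 knockdown, against 0.723 and 0.810 in Ctr (limma, adjusted p = 0.726 and 0.914). Ly6e was at the ends of the scale in every library.

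Of the genes that mTECs use to present antigen, Cd74 was 0.0996 and 0.101 with Raver2 knockdown and 0.103 and 0.0960 with Setd2 knockdown, against 0.139 and 0.109 in Ctr. All 4 knockdown libraries lay below both Ctr libraries, but only narrowly below the second, and the adjusted p in limma was 0.627 and 0.597. H2-T10, an MHC class I-like gene annotated as a pseudogene, was above 0.99 everywhere. Btn2a2, a butyrophilin that restrains T cells, had 0.538 and 0.734 for event 1 with Raver2 knockdown and 0.0236 and 0.957 with Setd2 knockdown, against 0.988 and 0.997 in Ctr. Its event 2 was 0.474 and 0.266 with Raver2 knockdown and 0.976 and 0.351 with Setd2 knockdown, against 0.0125 and 0.00284 in Ctr. The knockdown libraries lay below Ctr for the first event and above it for the second, and neither passed (limma, adjusted p from 0.459 to 0.782). Cd6, Cd37 and Cd226, surface proteins of lymphocytes, had no call, and Cd6 was 0.754 and 0.717 with Raver2 knockdown and 0.690 and 0.734 with Setd2 knockdown, against 0.654 and 0.673 in Ctr.

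The remaining Cd genes (19 events, 13 genes) include adhesion molecules, tetraspanins and scavenger receptors. Many of the 13 genes are expressed outside the immune system, and none passed in the main limma fit to 6 libraries. Cd151, a tetraspanin of epithelial adhesion, had 1.04e-05 and 0.251 with Raver2 knockdown and 0.606 and 0.999 with Setd2 knockdown, against 0.327 and 0.418 in Ctr. Cd36, a scavenger receptor for lipids, had 0.129 and 0.00223 with Raver2 knockdown and 0.585 and 0.286 with Setd2 knockdown, against 0.331 and 0.296 in Ctr. In both genes Raver2 knockdown lay below Ctr and below Setd2 knockdown, with adjusted p in limma of 0.712 and 0.608 for Raver2 knockdown against Ctr. Cd97, an adhesion receptor of leukocytes (Adgre5 in the annotation), had 0.355 and 0.312 for event 1 with Raver2 knockdown and 0.329 and 0.392 with Setd2 knockdown, against 0.385 and 0.451 in Ctr. Cd68 event 2, in a macrophage endosomal glycoprotein, was 0.00442 and 0.00535 with Raver2 knockdown and 0.00156 and 0.00169 with Setd2 knockdown, against 2.63e-07 and 4.68e-07 in Ctr (limma, adjusted p = 0.115 and 0.578). Cd163, Cd302, Cd99l2, Cd59a and Cd160 overlapped between at least 1 knockdown and Ctr in their single event. Cd2bp2, a protein of the splicing machinery, and the tetraspanin Cd82 had 3 events each, with adjusted p in limma of 0.540 or more.

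At an unadjusted p under 0.05, the families without a call between a knockdown and Ctr were read against 12.0% of all events for Raver2 knockdown and 11.6% for Setd2 knockdown. In Raver2 knockdown and Setd2 knockdown against Ctr there were 3 and 0 of 11 among NK cell lectins, 1 and 1 among interleukin genes, TNF family genes, chemokine genes and Ly6 genes each, and 1 and 0 among the remaining Cd genes. Cd74 with H2-T10, Btn2a2, and the lymphocyte genes Cd6, Cd37 and Cd226 held 0. Some events of a gene are complements of each other within 0.001 in every library, as in Clec2i, Lilra6, Ly6c1 and Tnfsf12Tnfsf13. They hold 1 observation but are counted as separate events in all counts above, and a complementary pair that does not overlap adds 1 event to the higher and 1 to the lower count.

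Large differences between the libraries of a group were common in these genes. Libraries of a group differed by more than 0.1 in 43 of 134 events with Raver2 knockdown (32.1%), 41 with Setd2 knockdown (30.6%) and 43 in Ctr (32.1%), against 22.9%, 25.5% and 27.7% of all events. Differences of more than 0.9 were found in 1 immune event with Raver2 knockdown (0.746%), 4 with Setd2 knockdown (2.99%) and 10 in Ctr (7.46%), against 3.48%, 3.78% and 3.59% of all events. Cd40 had 2 such events. Event 2 was 0.399 and 0.286 with Raver2 knockdown and 0.370 and 0.0597 with Setd2 knockdown, against above 0.99 and 3.96e-11 in Ctr. Event 3 was 0.421 and 0.488 with Raver2 knockdown and 0.392 and 0.560 with Setd2 knockdown, against 1.24e-08 and above 0.99 in Ctr. The knockdown libraries were intermediate in both, and the Ctr libraries sat at opposite ends. Cd44, the hyaluronan receptor known for its variable exons, was 0.476 and 8.69e-06 with Raver2 knockdown and below 0.01 in both Setd2 knockdown libraries, against 0.999 and 0.000739 in Ctr. Klrc1, which encodes the inhibitory receptor NKG2A, was above 0.99 for event 1 in all 4 knockdown libraries, against 4.85e-08 and above 0.99 in Ctr. Il1rap, the accessory chain of the IL-1 receptor with known soluble forms, spanned the scale in 2 groups, with 0.997 and 0.428 with Raver2 knockdown, 0.772 and 0.000543 with Setd2 knockdown and 0.000135 and above 0.99 in Ctr. For such events the mean of 2 libraries describes neither of them.

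**Figure D3:**
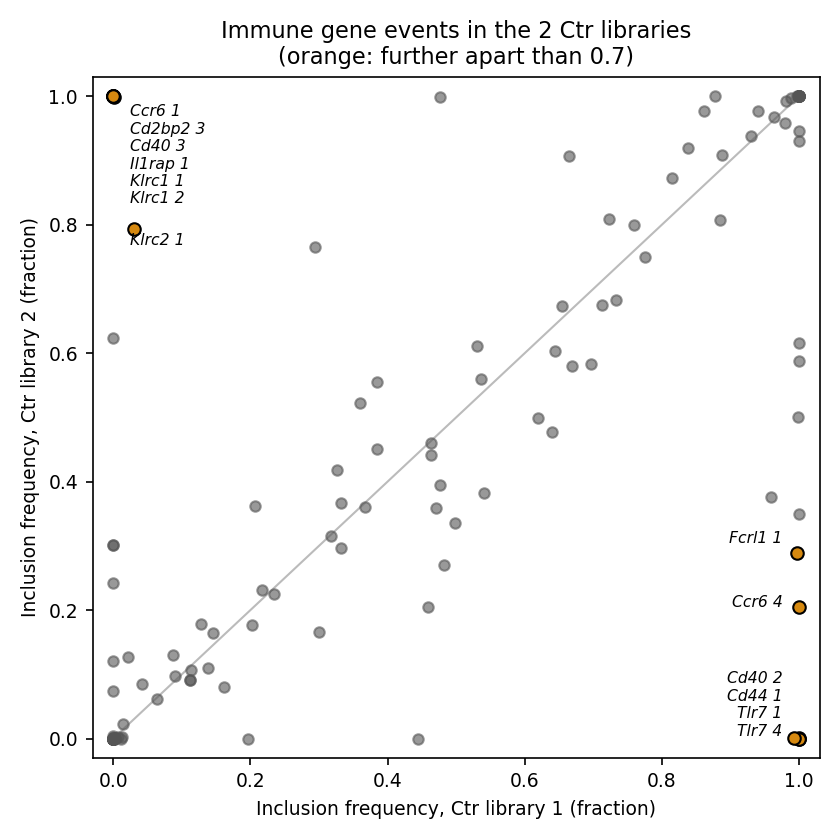
Inclusion frequency (fraction) of the 134 immune events in the first Ctr library (horizontal axis) and the second Ctr library (vertical axis); each point is 1 event, and the 13 events that differ by more than 0.7 are named. Most events lie near the diagonal, while events of Cd40, Klrc1, Tlr7 and Ccr6 lie in opposite corners.

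Other immune events kept to a narrow range over all libraries, which does not mean that the groups overlapped. In 39 of 134 events (29.1%, against 42.9% of all events) all 6 values lay between 0.01 and 0.99, and in 10 of these 39 (25.6%, against 37.35% of all such events) the 6 libraries spanned less than 0.1. These narrow-range events belong to Ccr9, Cd27 (both events), Cd34, Cd72 (event 2), Cd74, Cd82 (event 2), Clec4a2, Clec4n (event 2) and Ly6a (event 2). Cd27 event 1 was 0.853 and 0.846 with Raver2 knockdown and 0.834 and 0.837 with Setd2 knockdown, against 0.815 and 0.872 in Ctr. Cd34, a sialomucin of progenitor and endothelial cells, was 0.418 and 0.340 with Raver2 knockdown and 0.383 and 0.369 with Setd2 knockdown, against 0.331 and 0.366 in Ctr. Clec4n, the fungal receptor Dectin-2, was 0.892 and 0.866 for event 2 with Raver2 knockdown and 0.898 and 0.873 with Setd2 knockdown, against 0.885 and 0.806 in Ctr. At the other extreme, 25 immune events (18.7%) spanned more than 0.9 over the 6 libraries, against 12.9% of all events.

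**Figure D4:**
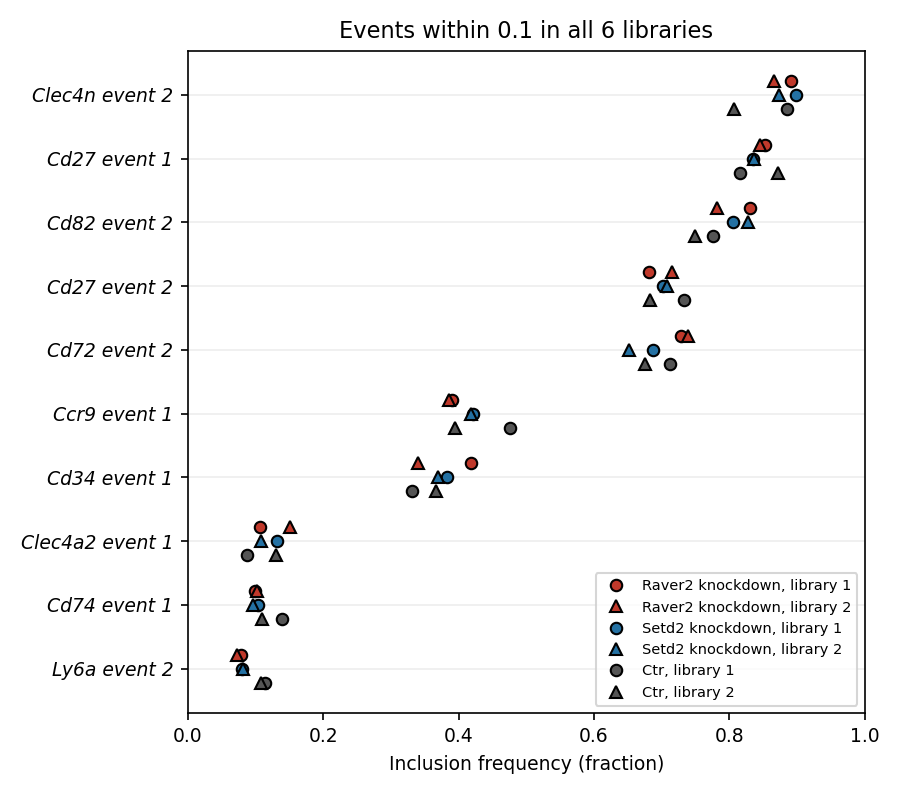
Inclusion frequency (fraction, horizontal axis) of the 10 immune events whose 6 values lie between 0.01 and 0.99 and span less than 0.1, in Raver2 knockdown, Setd2 knockdown and Ctr libraries; each line of the plot is 1 event and each point 1 library. The levels run between about 0.1 for Ly6a event 2, Cd74 and Clec4a2 and above 0.8 for Cd27 event 1 and Clec4n event 2.

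Adaptors, kinases and transcription factors that act downstream of these receptors were read from the same fit as a list of 68 genes, of which 21 were listed with 36 events. In Raver2 knockdown against Ctr 1 of 36 passed, higher, and none was lower, beside 2.43% of all events. It was event 3 of Tnip1, an inhibitor of NF-κB signalling, with 0.964 and 0.947 with Raver2 knockdown and 0.848 and 0.872 with Setd2 knockdown, against 0.716 and 0.758 in Ctr. The 3 groups did not overlap. The difference was 0.219 for Raver2 knockdown (limma, adjusted p = 0.0301) and 0.123 for Setd2 knockdown, which did not pass (limma, adjusted p = 0.123). For Setd2 knockdown against Ctr and for Raver2 knockdown against Setd2 knockdown 0 of 36 passed in limma, beside 2.23% and 0.73% of all events. At an unadjusted p under 0.05 there were 2 of 36 in each, beside 11.6% and 6.12% of all events.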

How the data were processed

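RNA of sorted mTECs was amplified with a SMART-seq kit and made into libraries with a Nextera kit, per the labels' protocols, giving 6 libraries. The authors deposited each event as a gene symbol and an inclusion fraction. Per the submitters' processing notes, Trimmomatic 0.39, TopHat2, Cufflinks and mm10 were used; the sources used here do not give the formula of the fraction or any coverage minimum. Amplification of few cells and thin coverage can push a fraction to 0 or 1, and the depth is unknown.

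Events carry no coordinates, so they were matched between libraries by gene and order, for genes with equal numbers of events in all 6. At the same position the 89 immune events of genes with several events correlated between libraries at 0.592 to 0.872, and the 45 of genes with 1 event at 0.512 to 0.831.

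Fractions were fitted with limma 3.58.1 in R 4.3.3, with 1 mean per group over 6 libraries, a variance trend and two-sided contrasts, adjusted by Benjamini-Hochberg over 4658 events. The code was tested on simulated data. Tables and figures used Python 3.11.15, pandas 2.3.3, numpy 2.4.6 and matplotlib 3.10.9, and gene models GENCODE M21. Named were, per comparison, events past the threshold, the 10 with the largest moderated t, the 10 with the largest difference among those with libraries within 0.1, and the 5 members that differ most between the Ctr libraries. Also named were Cd74, Fcrl5, Clec4b1, Cd209b and Tlr7. Narrow-range events, Tnip1 and other examples were chosen after their values were seen. Not every event that met the rule is described. The members, lists and tests were chosen with earlier results of these data known. Alternatives were another scale, other variance models, fewer libraries, fewer events and a block for the hairpin number.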

Additional observations from a re-analysis of the deposited data

Results flagged for a closer look

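Tlr7 event 2 differed between the knockdowns themselves, which is the contrast between the 2 effects because both are set against the same Ctr libraries. Raver2 knockdown averaged 5.74e-05 and Setd2 knockdown 0.0415, a difference of -0.0414 (limma, adjusted p = 0.0201), lower in both Raver2 libraries than in either Setd2 library. The difference kept its direction in all 12 other fits. Most of them gave an adjusted p above 0.05 in limma, up to 0.504 with the hairpin number as a block. The cause was not tested.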

How the results depend on the processing

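The 50 comparisons of single named events gave 600 values under other settings. Of these, 534 kept their direction and side of the threshold, 38 lost and 28 gained a call, and 0 changed direction. Most of the 50 had no call in the main fit, and only a called result can lose a call. The 534 thus do not measure how stable the calls were. The number of immune events called also changed with the setting. For Raver2 knockdown against Ctr it was 5, but 8 on the arcsine square root scale, 3 without the variance trend, 2 among genes with 1 event and 0 among events with all values between 0.01 and 0.99. A fit to the 4 libraries compared also gave 5, but of other events: Cd300lg events 2 and 4, Il15ra event 3, Cxcl12 and Fcrl5. Only Fcrl5 was called in the main fit as well. For Setd2 knockdown against Ctr it was 4, but 7 on the arcsine scale, 2 among genes with 1 event, 0 among such mid-range events, and 0 in a fit to the 4 libraries compared (11 at an unadjusted p under 0.05). The shares of all events on the arcsine scale, without the trend and at that unadjusted p are not given here. These counts are thus not read as a result about the immune genes. For Raver2 knockdown against Setd2 knockdown the 1 call (Tlr7 event 2) became 0 without the trend, with the 4 libraries alone, in genes with 1 event, in mid-range events, and without either Ctr library; on the arcsine scale the 1 call was Cd300lg event 2 instead. Leaving out each library in turn gave 5 to 12, 4 to 11 and 0 to 7 immune calls in these comparisons (the lone library of a group is then assumed to vary like the others), and 74 to 291, 48 to 279 and 46 to 119 calls over all events. Over all events the counts of 113, 104 and 34 became 38, 37 and 12 in genes with 1 event and 10, 6 and 0 among mid-range events; with 4 libraries the first became 75 and the second 0. The cause of these changes in the counts was not tested. A fit to the 4 knockdown libraries took the hairpin number as a replicate block. There 0 immune events and 0 of all events passed in limma (7 and 265 at an unadjusted p under 0.05). Over all events, the deviations of the first Raver2 and first Setd2 libraries from their group means correlated at 0.0146. The labels state no pairing by hairpin number, and whether libraries with the same number share a batch was not tested. The depth behind each fraction is unknown, so no limit on detection can be given.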
